A study of Mus musculus with 31 samples.

Results

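The genes described here are 35 endothelial and vascular genes, the receptors, ligands, junction proteins, surface proteins, transcription factors and the enzyme by which blood and lymphatic vessels are usually recognised in bulk tissue. They were chosen by name, as the rows of the 3 count tables whose transcript accession carries a listed symbol. Of the 35 genes, 31 had such a row, among 17334 transcript accessions in all. Without a row, Egfl7, Pecam1, Emcn and Eng were not analysed here. The counts of Esm1, Cd34, Erg and Prox1 were too low to pass the count filter of the main test in any comparison. They had 65, 19, 71 and 2 reads over all 31 libraries.

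Endothelial cells line vessels and grow towards vascular endothelial growth factors, which they sense through receptor tyrosine kinases, while the angiopoietins and their Tie receptors set how stable the vessel wall is. In fat, vessels deliver fatty acids, glucose and oxygen and carry away heat, and brown fat is among the most densely vascularised tissues of the mouse. Lymphatic endothelium is a separate lineage, marked by Prox1, Lyve1 and Flt4.

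RNA was sequenced from interscapular brown fat (iBAT), inguinal white fat (iWAT) and epididymal white fat (eWAT) of male C57BL/6J mice aged 8 weeks. All mice first spent 8 days at thermoneutrality, after which 1 group was killed (day 0) and the others were kept at 4 °C for 2 days or for 4 days. RNA came from dissected tissue with no sort of endothelial cells named, and no allele or transgene is named in the labels. The iBAT groups held 3, 4 and 3 libraries at days 0, 2 and 4, the iWAT groups 4, 3 and 5, and the eWAT groups 3 each. Nothing in the labels states that libraries of 1 group came from separate mice, so p-values measure the spread between these libraries, which may be technical in part.

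Libraries held 1577168 to 3756389 counts in iBAT, 1502823 to 5527239 in iWAT and 3193060 to 4033224 in eWAT. Levels of genes are given in counts-per-million (CPM) of a library's total scaled by its TMM factor, a correction for differences in composition between libraries, and sums over marker lists in CPM of the unscaled total. Markers of other tissues were present. Summed over 18 skeletal muscle markers, iBAT held 4487 to 63575 CPM, iWAT 29.5 to 3945 CPM and eWAT 37.4 to 1433 CPM. Summed over the 12 lymphocyte markers with a row, iWAT held 841 to 4149 CPM, against 0.0 to 24.5 CPM in iBAT and 11.5 to 51.0 CPM in eWAT. Epididymis and testis markers summed to 130 to 39065 CPM in eWAT, 1.25 to 6133 CPM in iWAT and 0.0 to 12.2 CPM in iBAT. Their part in the differences between depots was not tested. The libraries of each depot also fell on either side of a gap in a score, which is their place along the strongest axis of variation within groups, taken for each depot from the other depots. On the high side were 3 of 10 iBAT libraries, 6 of 12 iWAT libraries and 3 of 9 eWAT libraries, and among them were 3 of 4 iWAT libraries but none of the iBAT libraries at day 0.

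Per kilobase of transcript, which adjusts for length alone, the row of the junction protein Cdh5 (VE-cadherin) had the highest median level of the 31 genes in iBAT, 132 CPM per kb. Aqp1, a water channel of capillary endothelium, followed at 78.8 CPM per kb, then Cldn5, a tight junction protein, at 68.0 CPM per kb. In iWAT the order was Aqp1 (72.3 CPM per kb), Cldn5 (61.1), the tetraspanin Tspan7 (58.3), the leukocyte adhesion ligand Icam2 (47.1) and the sphingosine 1-phosphate receptor S1pr1 (41.6), while Cdh5 came sixth at 29.9 CPM per kb. In eWAT, Aqp1 (148 CPM per kb) and Cldn5 (128 CPM per kb) led. The ranges of these neighbours over the libraries of a depot overlapped, as those of Cdh5 (14.2 to 225 CPM per kb) and Aqp1 (37.7 to 261 CPM per kb) did in iBAT, so their order is not separated from the spread. At the bottom were the rows of Prox1, the regulator of lymphatic identity, at 0 in every iBAT library and at no more than 0.235 CPM elsewhere, and of Cd34, a common marker of endothelium and of fat stroma, at no more than 0.738 CPM. Pparg and Pnpla2, genes that fat cells need, had medians of 0.0 CPM in all 3 depots. An empty or low row in these tables thus does not show that a gene is weakly expressed. The order above is one of rows.

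Between depots, 12 of the 27 tested genes differed between iBAT and iWAT when the 3 day means of each depot were averaged, at an adjusted p under 0.05 in edgeR's quasi-likelihood test, as did 39.0% of all genes. Of these, 9 were higher in iBAT, against 15.1% of all 11041 genes tested, and 3 were lower, against 23.9% of all genes. The median log2 difference was 0.44 over the 27 genes and -0.22 over all genes, and 20 of the 27 differences were above 0. With library size alone as the scaling, the median of all genes moved to -0.63 and that of the 27 genes to 0.07. The member calls became 7 higher and 5 lower, and those over all 11041 genes went from 4301 to 5209. A level in bulk tissue cannot tell fewer endothelial cells from less RNA per cell, here or in any comparison that follows. The summed muscle and lymphocyte markers given above also separated iBAT from iWAT, and their part in these differences was not tested.

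**Figure D1:**
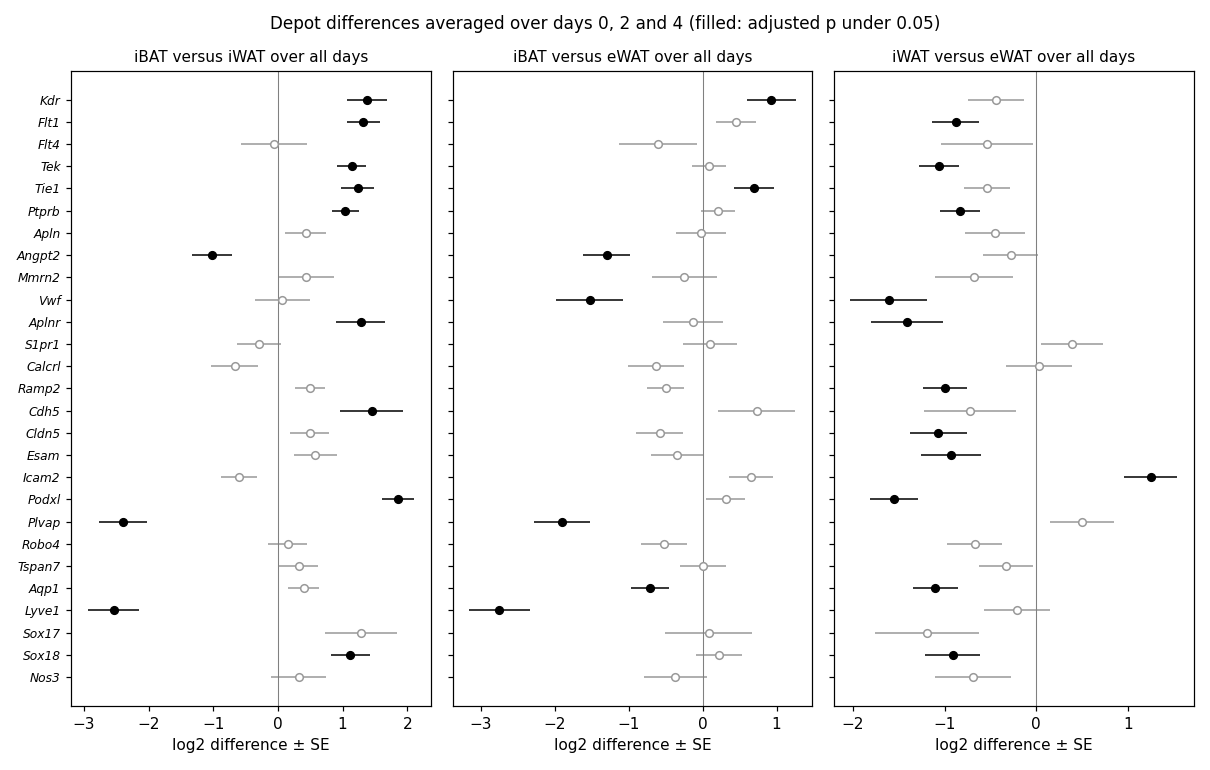
Log2 differences between depots for the 27 tested endothelial and vascular genes, averaged over days 0, 2 and 4, with the standard error as a bar; filled points have an adjusted p under 0.05. Most genes lie to the right of 0 for iBAT versus iWAT (20 of 27) and to the left for iWAT versus eWAT (23 of 27), under TMM scaling.

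Receptor kinases and the phosphatase Ptprb accounted for 5 of the 9 genes higher in iBAT. Tek, the angiopoietin receptor, ranged from 29.1 to 91.7 CPM in iBAT with a median of 45.2, from 13.3 to 39.3 CPM in iWAT with a median of 19.6, and from 25.7 to 73.4 CPM in eWAT with a median of 37.2. Most iWAT libraries lay below every iBAT library, though the ranges met. The log2 difference of Tek between iBAT and iWAT was 1.14 ± 0.22 (SE; edgeR, adjusted p = 0.000124). Its relative Tie1 ranged from 91.4 to 239 CPM in iBAT (median 120), from 30.1 to 125 CPM in iWAT (median 54.2) and from 42.9 to 199 CPM in eWAT (median 82.5). Its difference between iBAT and iWAT was 1.23 ± 0.25 (edgeR, adjusted p = 0.000284). Ptprb, the phosphatase that acts on Tek, ranged from 88.4 to 196 CPM in iBAT (median 142), from 30.4 to 127 CPM in iWAT (median 60.2) and from 74.9 to 207 CPM in eWAT (median 116). The iBAT level of Ptprb exceeded that of iWAT by 1.04 ± 0.21 on the log2 scale (edgeR, adjusted p = 0.000297).

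The receptors for vascular endothelial growth factors are Kdr, Flt1 and Flt4. Kdr, the main signalling receptor of blood endothelium, ranged from 8.15 to 23.4 CPM in iBAT (median 12.8), from 2.37 to 11.8 CPM in iWAT (median 4.65) and from 0.727 to 18.5 CPM in eWAT (median 7.05). Its iBAT level exceeded that of iWAT by 1.37 ± 0.31 (edgeR, adjusted p = 0.000846) and that of eWAT by 0.93 ± 0.33 (edgeR, adjusted p = 0.0236). The call against eWAT was lost without eWAT516, a library named by its depot and label number, and with library size alone as the scaling (0.50, adjusted p = 0.191). Flt1, the decoy-like receptor that binds the ligand tightly, had a median of 23.7 CPM in iBAT (10.1 to 36.4), 8.83 CPM in iWAT (3.89 to 18.8) and 15.9 CPM in eWAT (8.24 to 23.5). Its iBAT level exceeded that of iWAT by 1.32 ± 0.26 (edgeR, adjusted p = 0.000196). Flt4, the receptor of lymphatic endothelium, ranged from 0.0 to 7.47 CPM in iBAT, from 0.697 to 10.6 CPM in iWAT and from 3.64 to 9.76 CPM in eWAT. Its difference between iBAT and iWAT was -0.06 ± 0.51 (edgeR, adjusted p = 0.95).

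**Figure D2:**
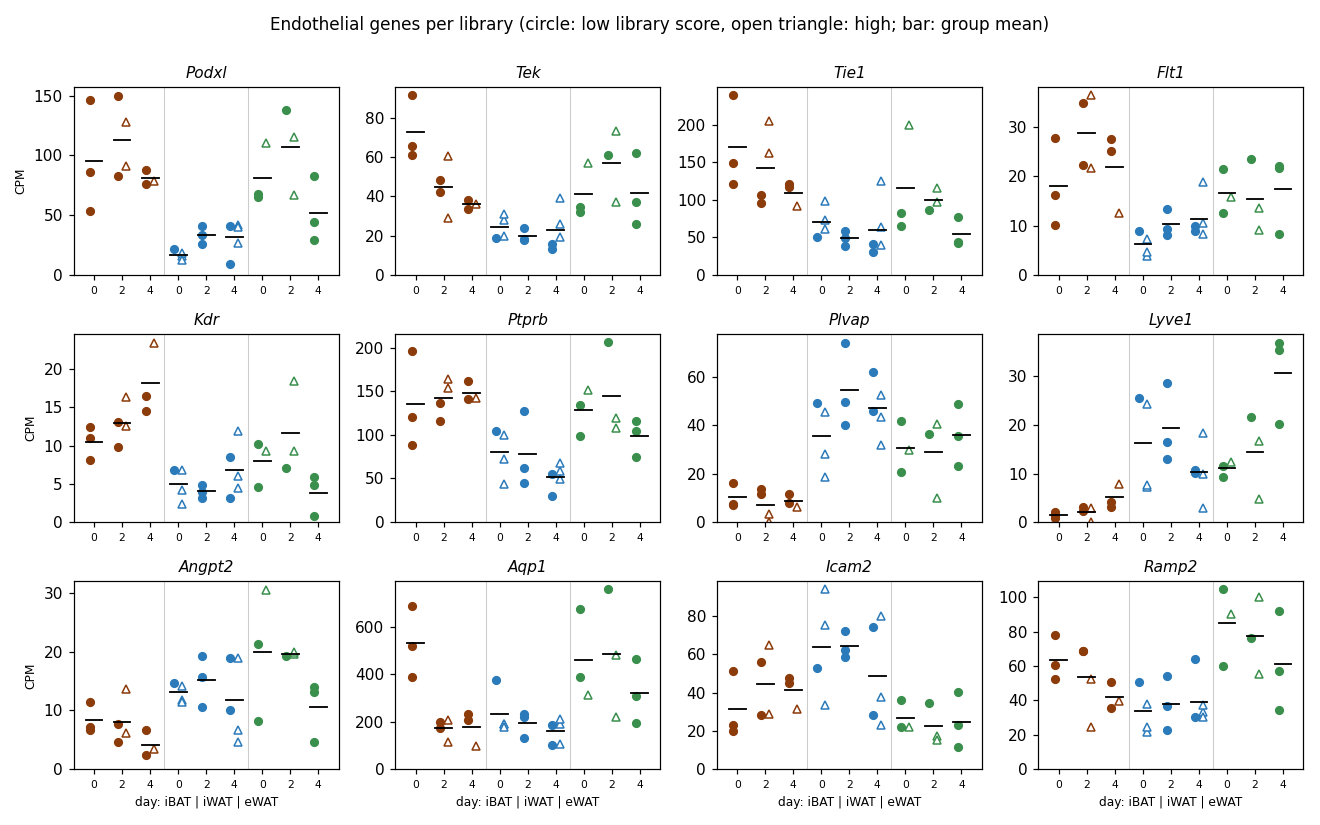
Levels in CPM of 12 endothelial genes in each of the 31 libraries, by depot and day; circles are libraries with a low library score, open triangles those with a high one, and bars are group means. Podxl, Tek, Tie1 and Kdr run higher in iBAT than in iWAT, whereas Plvap and Lyve1 run lower in iBAT than in either white depot.

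Among surface proteins, Podxl, a sialomucin of the luminal membrane, gave the smallest p of all members between iBAT and iWAT. It ranged from 53.9 to 150 CPM in iBAT (median 86.9), from 9.06 to 41.8 CPM in iWAT (median 26.1) and from 29.6 to 138 CPM in eWAT (median 67.7). Every iBAT library lay above every iWAT library. The log2 difference was 1.86 ± 0.25 (edgeR, adjusted p = 1.28e-06). Podxl lies at chr6:31519493-31563937 (GRCm38.p6). Cdh5 ranged from 56.6 to 900 CPM in iBAT (median 529), from 45.0 to 468 CPM in iWAT (median 120) and from 60.2 to 578 CPM in eWAT (median 249). Its ranges overlapped widely, and its difference of 1.45 ± 0.49 between iBAT and iWAT passed the test (edgeR, adjusted p = 0.0206). That call did not pass with library size alone (1.01, adjusted p = 0.0891).

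The remaining genes that were higher in iBAT than in iWAT were Aplnr and Sox18. Aplnr, the apelin receptor, ranged from 10.3 to 101 CPM in iBAT (median 39.9), from 7.20 to 26.5 CPM in iWAT (median 17.7) and from 10.9 to 101 CPM in eWAT (median 37.3). The difference was 1.28 ± 0.38 (edgeR, adjusted p = 0.00879). Sox18, a transcription factor of vessel and lymphatic development, had medians of 89.0 CPM in iBAT (30.7 to 130), 40.8 CPM in iWAT (8.30 to 69.4) and 80.5 CPM in eWAT (26.9 to 111). Its difference was 1.12 ± 0.30 (edgeR, adjusted p = 0.00368) and did not pass with library size alone (0.70, adjusted p = 0.0568).

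The opposite direction was seen for 3 genes. Plvap, which forms the diaphragms of fenestrated and stomatal endothelium, ranged from 0.0 to 16.3 CPM in iBAT (median 7.67), from 18.7 to 74.0 CPM in iWAT (median 45.9) and from 9.81 to 49.0 CPM in eWAT (median 35.7). All 12 iWAT libraries lay above all 10 iBAT libraries. The log2 difference was -2.40 ± 0.37 between iBAT and iWAT (edgeR, adjusted p = 9.84e-06) and -1.90 ± 0.38 between iBAT and eWAT (edgeR, adjusted p = 0.000242). Lyve1, the hyaluronan receptor of lymphatic endothelium and of some macrophages, ranged from 0.0 to 7.91 CPM in iBAT (median 2.60), from 2.79 to 28.6 CPM in iWAT (median 11.9) and from 4.78 to 36.8 CPM in eWAT (median 16.7). Most white fat libraries lay above every iBAT library. The log2 difference of Lyve1 was -2.54 ± 0.40 between iBAT and iWAT (edgeR, adjusted p = 1.21e-05) and -2.75 ± 0.41 between iBAT and eWAT (edgeR, adjusted p = 7.26e-06). Summed macrophage markers were also lower in iBAT, at 36.3 to 111 CPM, than in iWAT, at 58.8 to 302 CPM, or eWAT, at 114 to 766 CPM, and their part in the Lyve1 difference was not tested. Of 4 other lymphatic markers, Pdpn and Reln had a row. Both were called lower in iBAT over all days, against 23.9% of all genes versus iWAT and 27.6% versus eWAT. Flt4, also of lymphatic endothelium, passed in none of these depot comparisons. Summed mesothelial markers ran from 0.0 to 4.67 CPM in iBAT, 0.55 to 49.2 CPM in iWAT and 17.3 to 576 CPM in eWAT. Their part in the Pdpn and Reln differences was not tested.

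Angpt2, the angiopoietin that loosens vessels, was the third. It ranged from 2.33 to 13.6 CPM in iBAT (median 6.69), from 4.65 to 19.2 CPM in iWAT (median 13.0) and from 4.61 to 30.5 CPM in eWAT (median 19.3). Its difference was -1.02 ± 0.31 between iBAT and iWAT (edgeR, adjusted p = 0.00945) and -1.30 ± 0.32 between iBAT and eWAT (edgeR, adjusted p = 0.00189). Angpt2 was thus lower in iBAT, where its receptor Tek was higher than in iWAT.

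Between iBAT and eWAT, 7 of 27 genes differed, as did 41.5% of all genes; 2 were higher in iBAT, against 13.9% of all genes, and 5 were lower, against 27.6% of all genes. The median difference was -0.13 over the 27 genes and -0.31 over all genes. Leaving out 1 library at a time, the median of the 27 genes ran from -0.27 (without eWAT538) to 0.10 (without eWAT539), and it was 0.01 without eWAT517. With library size alone the median of all genes was -0.76, that of the 27 genes -0.59, and the calls were 0 higher and 9 lower. Besides Kdr, Tie1 was higher in iBAT by 0.69 ± 0.27 (edgeR, adjusted p = 0.0391), a call that was lost in 14 of 26 alternatives, 11 of them the omission of a single library: iBAT516, iBAT535, iBAT539, iBAT550, iBAT555, eWAT516, eWAT517, eWAT538, eWAT539, eWAT551 or eWAT553. Vwf, the clotting factor carrier stored by endothelial cells, ranged from 2.04 to 52.9 CPM in iBAT (median 10.8), from 2.62 to 28.0 CPM in iWAT (median 10.5) and from 9.87 to 72.5 CPM in eWAT (median 14.3). It was lower in iBAT than in eWAT by a log2 difference of -1.53 ± 0.45 (edgeR, adjusted p = 0.00727). Aqp1 ranged from 99.0 to 686 CPM in iBAT (median 207), from 100 to 374 CPM in iWAT (median 190) and from 195 to 757 CPM in eWAT (median 389). Its difference between iBAT and eWAT was -0.71 ± 0.26 (edgeR, adjusted p = 0.0301), lost in 8 of 26 alternatives, among them the omission of iBAT518, iBAT535, iBAT548, eWAT517, eWAT539 or eWAT553.

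The white depots differed most often in one direction. Between iWAT and eWAT, 12 of 27 genes differed, as did 28.4% of all genes; 11 were lower in iWAT, against 15.5% of all genes, and 1 was higher, against 12.9% of all genes. The median difference was -0.69 over the 27 genes and -0.03 over all genes, and library size alone gave -0.74 and -0.08. Podxl was lower in iWAT by a log2 difference of -1.55 ± 0.26 (edgeR, adjusted p = 3.62e-05), Tek by -1.06 ± 0.22 (edgeR, adjusted p = 0.000547) and Aqp1 by -1.10 ± 0.25 (edgeR, adjusted p = 0.00132). Vwf, Aplnr, Flt1, Ptprb and Sox18 were also lower in iWAT, by differences of -1.61, -1.41, -0.88, -0.83 and -0.91. The Sox18 call was lost without eWAT517, eWAT539 or eWAT548.

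Ramp2, the partner protein that makes the receptor Calcrl respond to adrenomedullin, was lower in iWAT than in eWAT too. It ranged from 24.3 to 77.8 CPM in iBAT (median 52.5), from 21.9 to 64.2 CPM in iWAT (median 35.1) and from 34.4 to 105 CPM in eWAT (median 76.2), with a difference of -1.0 ± 0.24 between iWAT and eWAT (edgeR, adjusted p = 0.00200). Its exons overlap those of Vps25 on the same strand, so some reads may belong to either gene. Calcrl itself ranged from 18.1 to 30.5 CPM in iWAT and from 17.5 to 63.1 CPM in eWAT, and its difference was 0.03 ± 0.36 (edgeR, adjusted p = 0.964). Cldn5 had medians of 96.2 CPM in iBAT (55.7 to 175), 86.5 CPM in iWAT (26.1 to 172) and 181 CPM in eWAT (42.7 to 238). Its difference between iWAT and eWAT was -1.07 ± 0.31 (edgeR, adjusted p = 0.00888). Esam, another junction protein, ranged from 3.83 to 15.1 CPM in iBAT (median 8.56), from 1.51 to 9.52 CPM in iWAT (median 5.70) and from 3.64 to 22.6 CPM in eWAT (median 9.81). Its difference of -0.93 ± 0.33 (edgeR, adjusted p = 0.0365) was lost in 10 of 27 alternatives, 8 of them the omission of 1 library: iWAT517, iWAT518, iWAT532, iWAT538, eWAT517, eWAT539, eWAT548 or eWAT553.

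Icam2 was the gene higher in iWAT than in eWAT. It ranged from 20.0 to 64.6 CPM in iBAT (median 38.1), from 23.2 to 93.8 CPM in iWAT (median 60.4) and from 11.4 to 40.3 CPM in eWAT (median 22.2). The difference was 1.25 ± 0.29 (edgeR, adjusted p = 0.00178). Icam2 is also made by lymphocytes, whose summed markers had a median of 2921 CPM in iWAT and 29.0 CPM in eWAT, and their part in the difference was not tested.

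The genes that passed in none of these depot comparisons were Flt4, Apln, Mmrn2, S1pr1, Calcrl, Robo4, Tspan7, Sox17 and Nos3. Their differences over all days between iBAT and iWAT ran from -0.67 (Calcrl) to 1.28 (Sox17). Robo4, a guidance receptor that steadies the vessel wall, had medians of 92.0 CPM in iBAT, 66.9 CPM in iWAT and 113 CPM in eWAT. S1pr1, which lymphocytes also carry, had medians of 98.8 CPM, 127 CPM and 93.6 CPM in the same order. Nos3, the endothelial nitric oxide synthase and the one enzyme of the list, ranged from 0.316 to 8.83 CPM in iBAT, from 0.589 to 4.54 CPM in iWAT and from 0.727 to 6.40 CPM in eWAT. Exons of Nos3 overlap those of Atg9b on the opposite strand, and the use of strand in counting is not recorded. DESeq2, a second test run without the count filter, called Esm1 lower in iBAT than in iWAT over all days (-2.35 ± 0.99, adjusted p = 0.0438). DESeq2 also called Erg lower in iWAT than in eWAT over all days (-1.78 ± 0.66, adjusted p = 0.0275). These calls rest on 65 and 71 reads over all libraries.

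At day 0 alone, before any cold, the same fit called 6 genes higher and 1 lower in iBAT than in iWAT, against 8.12% and 9.77% of all genes, or 17.9% in either direction. Podxl stood at 147, 53.9 and 86.2 CPM in iBAT, at 15.7, 18.5, 12.4 and 21.5 CPM in iWAT and at 65.3, 67.7 and 110 CPM in eWAT. The iWAT libraries lay below all others, and the log2 differences were 2.48 ± 0.44 for iBAT versus iWAT (edgeR, adjusted p = 0.00026) and -2.24 ± 0.44 for iWAT versus eWAT (edgeR, adjusted p = 0.00142). Tek stood at 91.7, 65.7 and 61.3 CPM in iBAT and at 27.8, 19.9, 30.8 and 18.6 CPM in iWAT, with no overlap and a difference of 1.59 ± 0.38 (edgeR, adjusted p = 0.00385). Flt1, Tie1, Aplnr and Sox18 were higher in iBAT by 1.53, 1.26, 1.95 and 1.67. Leaving out each of the 7 libraries in turn, the call was lost in 3 fits for Flt1, 6 for Tie1, 5 for Aplnr and 4 for Sox18, and in none for Podxl, Tek or Lyve1. Lyve1 was lower in iBAT, at 1.22, 0.91 and 2.07 CPM, against 7.30, 7.53, 24.3 and 25.6 CPM in iWAT, with a difference of -3.48 ± 0.75 (edgeR, adjusted p = 0.00153).

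These day 0 counts moved with single libraries. The 7 calls between iBAT and iWAT became 4 without iBAT516, 3 without iBAT517 and 3 without iWAT518. Over all genes, the 1976 calls became 1199, 1300 and 1694 in the same fits. With RLE scaling the member calls were 4 higher and 2 lower, and with library size alone 2 higher and 3 lower. Those scalings called 2014 and 2102 of all 11041 genes. The high and low sides of the library score were unevenly spread over iBAT and iWAT at day 0, and with the score as a covariate 9 genes were higher and 2 lower. Between iBAT and eWAT, 0 genes were higher and 2 lower, against 5.07% and 5.21% of all genes (10.3% together), and 4 genes had an unadjusted p under 0.05. The share of all genes at that unadjusted threshold was not counted, here or below. The 2 called genes were Vwf and Lyve1, with log2 differences of -2.95 each, and the 2 calls became 0 without iBAT516 or iBAT517 and 1 without iBAT518 or eWAT518. Over all genes, the 1135 calls became 597, 586, 619 and 891 in these fits, in that order. With libraries of the low side of the score alone, the Vwf difference was -1.48 (adjusted p = 0.134). DESeq2 called 0 higher and 3 lower there, against 1675 of 17334 genes in either direction.

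Between iWAT and eWAT at day 0, 0 genes were higher and 3 lower, against 5.02% and 2.8% of all genes (7.82% together), with 11 genes at an unadjusted p under 0.05. DESeq2 called 0 higher and 5 lower, against 1303 of 17334 genes in either direction. The 3 were Podxl, Sox18 at -1.73 ± 0.52 (edgeR, adjusted p = 0.0375) and Ramp2 at -1.33 ± 0.41 (edgeR, adjusted p = 0.0402). Omitting any 1 of iWAT516, iWAT517, iWAT518, eWAT516, eWAT517 or eWAT518 left 1 call, and omitting iWAT522 gave 6. Over all genes, the 863 calls became 390 (without eWAT516) to 686 (without eWAT518) in the former fits, and 1300 without iWAT522.

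Cold exposure gave no edgeR call among the endothelial and vascular genes. In all 9 comparisons of days within a depot, edgeR called 0 of the 25 genes tested in iBAT and 0 of the 27 tested in iWAT and in eWAT. Among all genes the calls were 0.133% higher and 0.0242% lower (0.157% together) for iBAT at day 2, and 0.0% in each of the other 8 comparisons. At an unadjusted p under 0.05, the members numbered 4 in iBAT at day 2, 4 at day 4 and 0 between those days. In iWAT they numbered 4, 2 and 3, and in eWAT 0, 2 and 1. The share of all genes at this unadjusted threshold was not counted, so these numbers are a description. DESeq2 called 3 members in iBAT at day 2, Aqp1, Cldn5 and Vwf, and 0 in the other 8 comparisons. Of all genes, DESeq2 called 270 of 13933 in iBAT at day 2 and 73 at day 4. It called 124 and 55 of 16418 in iWAT at days 2 and 4, and 0 and 5 of 16132 in eWAT.

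**Figure D3:**
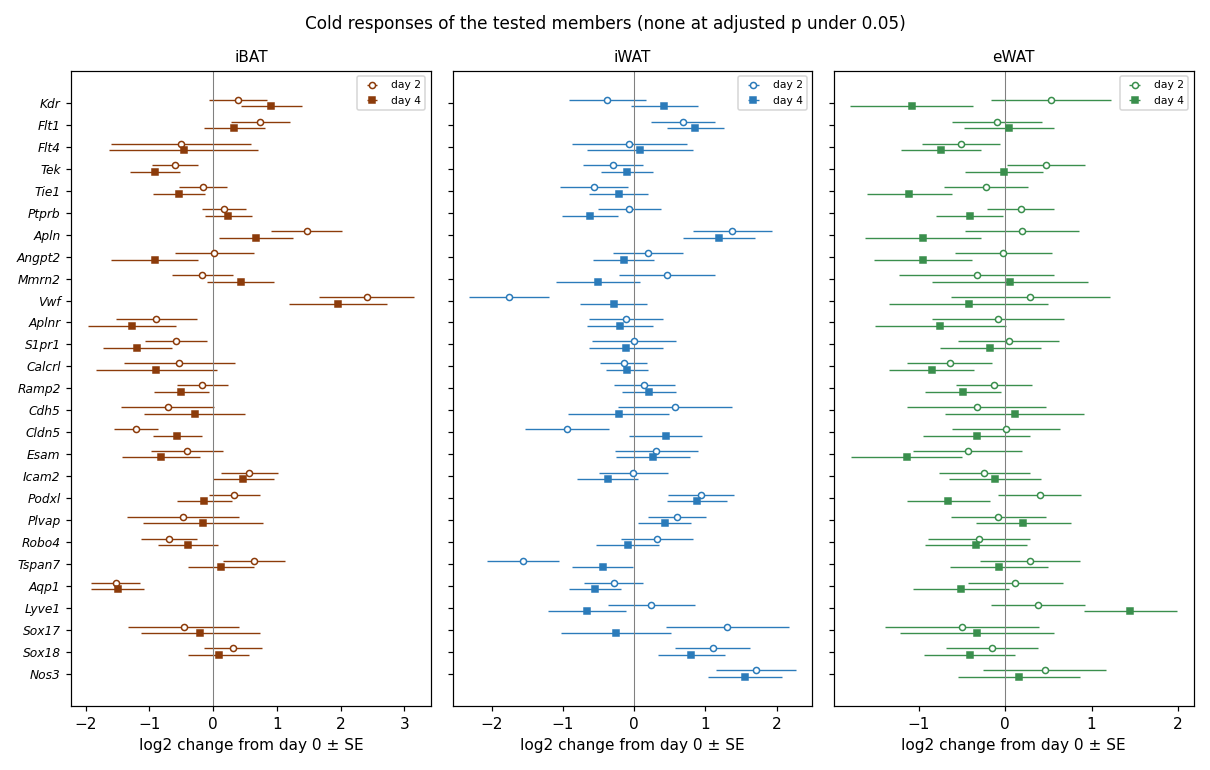
Log2 change from day 0 at days 2 and 4 for each tested endothelial and vascular gene within its depot, with the standard error as a bar. No change had an adjusted p under 0.05 in edgeR; Aqp1 lies at -1.53 and -1.50 in iBAT, and Vwf at 2.41 in iBAT and -1.76 in iWAT at day 2.

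The members below were chosen among those tested. The share of all genes whose day 0 and cold libraries did not overlap was not counted, so separations are a description. Aqp1 came nearest to the threshold. In iBAT it stood at 686, 520 and 390 CPM at day 0, at 199, 175, 113 and 208 CPM at day 2, and at 99.0, 231 and 206 CPM at day 4. All 7 cold libraries lay below all 3 libraries of day 0. The log2 differences were -1.53 ± 0.38 at day 2 (edgeR, adjusted p = 0.153) and -1.50 ± 0.41 at day 4 (edgeR, adjusted p = 0.398), and DESeq2 gave -1.57 ± 0.42 at day 2 (adjusted p = 0.0107). In the white depots the day 2 differences of Aqp1 were -0.29 ± 0.42 in iWAT and 0.12 ± 0.55 in eWAT, and the difference between the iBAT and eWAT responses was -1.70 ± 0.63 (edgeR, adjusted p = 1). The summed muscle markers of iBAT were also highest at day 0, at 19956 to 63575 CPM, against 7524 to 12401 CPM at day 2 and 4487 to 24926 CPM at day 4, and their part in the Aqp1 values was not tested.

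Cldn5 in iBAT stood at 150, 175 and 163 CPM at day 0, at 77.3, 61.2, 68.0 and 59.1 CPM at day 2, and at 115, 55.7 and 134 CPM at day 4. Its day 2 and day 4 libraries all lay below those of day 0. At day 4, iBAT550 (55.7 CPM) also lay below every day 2 library. The day 2 difference was -1.21 ± 0.35 (edgeR, adjusted p = 0.21) and by DESeq2 -1.25 ± 0.38 (adjusted p = 0.034).

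Vwf had day 2 differences of opposite sign in iBAT and iWAT, neither past the threshold of edgeR. In iBAT it stood at 2.04, 4.84 and 5.33 CPM at day 0, at 6.89, 9.86, 52.9 and 13.6 CPM at day 2, and at 17.7, 15.3 and 11.7 CPM at day 4. All cold libraries exceeded those of day 0, and iBAT535 stood far above the rest. In iWAT the levels were 25.3, 11.4, 16.6 and 13.3 CPM at day 0, 2.62, 4.87 and 7.26 CPM at day 2, and 8.53, 9.52, 15.5, 28.0 and 7.33 CPM at day 4, so that every day 2 library lay below every day 0 library. The day 2 differences were 2.41 ± 0.75 in iBAT (edgeR, adjusted p = 0.219) and -1.76 ± 0.56 in iWAT (edgeR, adjusted p = 0.355). The difference between these responses was 4.09 ± 1.12 (edgeR, adjusted p = 0.422), and DESeq2 gave 4.21 ± 1.06 (adjusted p = 0.0144). Vwf also went with the library score, at 13.6 to 52.9 CPM on the high side and 2.04 to 15.3 CPM on the low side in iBAT, and at 9.52 to 28.0 CPM and 2.62 to 13.3 CPM in iWAT. Of the day 2 libraries, 2 of 4 in iBAT and 0 of 3 in iWAT were on the high side, against 0 of 3 and 3 of 4 at day 0, and the part of the score in these values was not tested.

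The responses of 2 depots were compared in 6 such contrasts, and edgeR called 0 members in each, as it did 0.0% of all genes. Members with an unadjusted p under 0.05 numbered 3, 2 and 1 at day 2 for iBAT versus iWAT, iBAT versus eWAT and iWAT versus eWAT, and 3, 1 and 3 at day 4. DESeq2 called Vwf alone, in the contrast just given.

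Apln, the apelin ligand of tip cells, had positive differences at day 2 in both iBAT and iWAT. It stood at 4.07, 8.47 and 6.22 CPM in iBAT at day 0 and at 16.1, 7.78, 18.0 and 23.8 CPM at day 2, where 3 of 4 libraries exceeded all those of day 0. In iWAT it stood at 3.65, 4.86, 5.33 and 2.36 CPM at day 0 and at 14.0, 7.31 and 10.8 CPM at day 2, with no overlap. The differences were 1.47 ± 0.56 in iBAT (edgeR, adjusted p = 0.319) and 1.38 ± 0.55 in iWAT (edgeR, adjusted p = 0.44). In eWAT the day 2 difference was 0.20 ± 0.66.

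Nos3 in iWAT stood at 1.12, 0.73, 1.78 and 0.59 CPM at day 0, at 2.62, 3.25 and 4.22 CPM at day 2, and at 2.65, 3.48, 2.77, 4.54 and 1.86 CPM at day 4. All cold libraries exceeded those of day 0, at low levels, a separation that was not counted over all genes. The differences were 1.71 ± 0.56 at day 2 (edgeR, adjusted p = 0.364) and 1.56 ± 0.52 at day 4 (edgeR, adjusted p = 0.491). Lyve1 in eWAT stood at 9.38, 11.5 and 12.5 CPM at day 0 and at 36.8, 20.1 and 35.4 CPM at day 4, with no overlap and a difference of 1.45 ± 0.54 (edgeR, adjusted p = 1). Summed macrophage markers in eWAT ran from 162 to 332 CPM at day 0 and from 345 to 766 CPM at day 4, and their part was not tested.

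Over the list, the members' median difference from day 0 was -0.17 at day 2 and -0.29 at day 4 in iBAT, where all genes had medians of 0.01 and -0.04. In iWAT the medians were 0.14 and -0.10, against -0.08 and -0.01 for all genes. In eWAT they were -0.08 and -0.41, against 0.01 and -0.01, and 6 of 27 members had a positive difference at day 4. Each of these list medians moved by over 1.5 times without some single library. In iBAT the day 2 median ran from -0.35 (without iBAT518) to -0.0 (without iBAT516) and was 0.13 with the library score as a covariate, and the day 4 median ran from -0.57 (without iBAT555) to -0.02 (without iBAT516), with -0.06 without iBAT548. In iWAT the day 2 median ran from -0.02 (without iWAT539) to 0.42 (without iWAT522), with -0.01 without iWAT517 and -0.06 with the score as a covariate. The iWAT day 4 median ran from -0.22 (without iWAT517) to 0.50 (without iWAT522). In eWAT the day 2 median ran from -0.36 (without eWAT539) to 0.15 (without eWAT517), with 6 to 21 of 27 members positive, and was also above 0 without eWAT532 or eWAT538. The eWAT day 4 median stayed below 0, from -0.64 (without eWAT553) to -0.08 (without eWAT551, with 11 members positive), and was -0.21 without eWAT517. With library size alone, the all-gene medians were -0.27 and -0.30 in iBAT, -0.14 and -0.11 in iWAT, and -0.13 and -0.19 in eWAT. The comparisons of days 2 and 4 with day 0 share the day 0 libraries of their depot.

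Several members differed between libraries on either side of the gap in the library score. Sox17, a transcription factor of arterial endothelium, stood at 8.54 to 27.2 CPM in the 3 iBAT libraries with a high score and at 87.1 to 166 CPM in the other 7. In iWAT it stood at 5.93 to 13.5 CPM against 41.8 to 121 CPM, and in eWAT at 15 to 36.5 CPM against 59.2 to 203 CPM. Cdh5 behaved likewise, at 56.6 to 168 CPM against 505 to 900 CPM in iBAT, at 45.0 to 92.2 CPM against 147 to 468 CPM in iWAT, and at 60.2 to 174 CPM against 221 to 578 CPM in eWAT. For both genes the high and low sides did not overlap in any depot. Exons of Sox17 overlap a gene model on the opposite strand, Gm37587.

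Of the 25 members tested in iBAT, 5 lay lower on the high side without overlap (Sox17, Cdh5, Mmrn2, Robo4 and Plvap), against 13.3% of all genes. Of the 27 tested in each white depot, 2 did so in iWAT, against 6.26%, and 3 in eWAT, against 13.8%. The high side of iBAT was iBAT535, iBAT539 and iBAT548. Of these, iBAT539 and iBAT548 held only 159 and 57 counts of 1, and 8698 and 7535 transcripts with counts. Plvap had a missing value in iBAT539, taken as 0, and reached 6.32 CPM on the high side against a lowest 6.96 CPM on the low side. Mmrn2, an extracellular matrix protein of endothelium, stood at 31.1 to 44.3 CPM against 53.3 to 139 CPM in iBAT and at 11.5 to 34.4 CPM against 60.1 to 174 CPM in eWAT. None lay higher on the high side in iBAT or iWAT, against 6.14% and 4.63%, and Tie1 alone did in eWAT, against 10% of all genes, at 96.9 to 199 CPM against 42.9 to 86.7 CPM. Because the score was computed from all genes, these counts are a description. With the score as a covariate in edgeR the cold comparisons still had 0 calls among members.

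**Figure D4:**
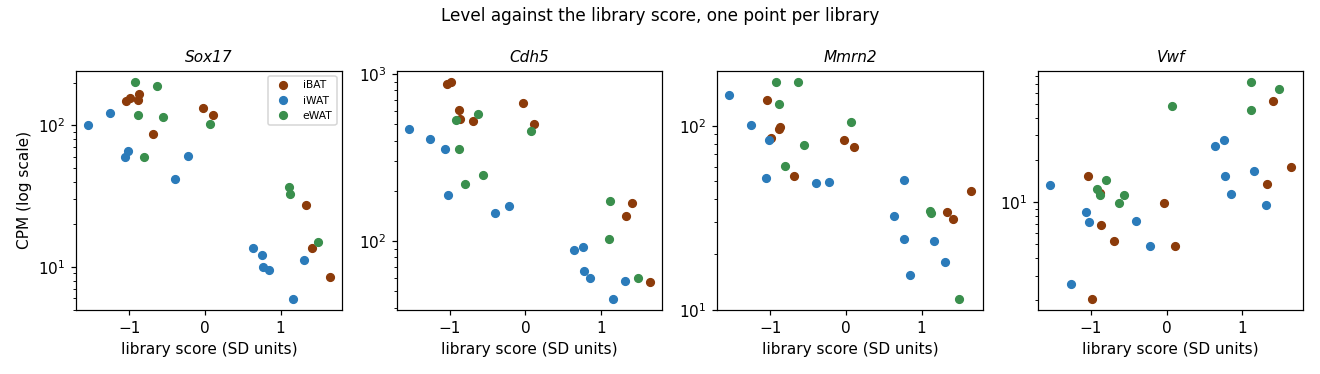
Levels of Sox17, Cdh5, Mmrn2 and Vwf in CPM on a log axis against the library score in SD units, with 1 point per library and colour by depot. Sox17 and Cdh5 are lower in every library of the high side than in any of the low side of the same depot.

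Other genes of vessels were taken in lists chosen by function, and their counts are read against the shares of all genes. Of 16 further endothelial genes tested, 8 were higher and 0 lower in iBAT than in iWAT over all days, against 15.1% and 23.9% of all genes. Among them were Adgrf5, an adhesion receptor (1.17 ± 0.23; edgeR, adjusted p = 0.000199), the transcription factor Sox7 (1.32 ± 0.27; adjusted p = 0.000354) and Myct1 (1.39 ± 0.32; adjusted p = 0.00106), whereas Ecscr differed by -0.15 ± 0.29. Between iBAT and eWAT 2 were higher in iBAT, Nostrin (0.92 ± 0.30) and Arhgef15 (0.80 ± 0.31), and 0 were lower, against 13.9% and 27.6% of all genes. Between iWAT and eWAT 1 was higher, Nostrin (1.47 ± 0.30), which traffics Nos3, and 7 were lower, among them Sox7 (-1.24 ± 0.28) and Adgrf5 (-0.88 ± 0.23), against 12.9% and 15.5% of all genes.

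Of 10 genes tested for ligands and coreceptors, 3 were higher and 2 lower in iBAT than in iWAT, against 15.1% and 23.9% of all genes, with Fgf1, a fibroblast growth factor, at 2.07 ± 0.53, Pdgfb, which recruits pericytes, at 1.07 ± 0.29 and the chemokine Cxcl12 at -2.28 ± 0.36. Against eWAT, 0 were higher and 6 lower in iBAT (13.9% and 27.6% of all genes), and 1 was higher and 6 lower in iWAT (12.9% and 15.5% of all genes). Vegfd, a ligand of Flt4, was lower than in eWAT by a difference of -2.43 ± 0.35 in iBAT and -1.52 ± 0.32 in iWAT. Adm, which acts through Calcrl and Ramp2, was lower by -1.65 ± 0.34 and -1.33 ± 0.32, and the angiogenesis inhibitor Thbs1 by -2.80 ± 0.57 and -2.47 ± 0.51.

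Of 10 Notch pathway genes, 9 were tested. In iBAT against iWAT 3 were higher and 1 lower (15.1% and 23.9% of all genes), with the ligand Jag2 at 1.37 ± 0.24, the target Heyl at 1.38 ± 0.29 and the ligand Jag1 at -2.18 ± 0.60. Against eWAT, 0 were higher and 1 lower in iBAT (Jag1, -2.21 ± 0.62), against 13.9% and 27.6% of all genes. In iWAT 0 were higher and 3 lower than in eWAT (Jag2, -1.39 ± 0.24, Hey1, -0.92 ± 0.32, and Heyl, -0.83 ± 0.30), against 12.9% and 15.5%. Of the 9 tested markers of mural cells, which wrap vessels, 4 were higher and 0 lower in iBAT than in iWAT (15.1% and 23.9% of all genes), 1 was higher and 4 lower in iBAT than in eWAT (13.9% and 27.6%), and 0 were higher and 7 lower in iWAT than in eWAT (12.9% and 15.5%). Summed over the list, mural markers varied most between libraries in eWAT, where the epididymis and testis markers given above were also highest. The part of such tissue in the mural differences was not tested. The vessel lists had 0 edgeR calls in the 9 comparisons of days within a depot. Per list and comparison, 0 to 4 genes had an unadjusted p under 0.05.

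Promoters of 15 of the 31 members, in 18 windows, are in the RefSeq table of GRCm38.p6 (250 bases before each start). Endothelial promoters are often bound by ETS factors, whose core with flanks, CGGAAG on either strand, was in 1 of these 18 windows (5.56%) and in 13.6% of 32851 windows of the same length. The pairing of a forkhead and an ETS core, AACAGGAA on either strand, was in 1 window (5.56%), that of Calcrl, and in 2.25% of all windows. Shown are the promoters of Tie1, with CGGAAG in capitals 232 bases before the start (chr4:118489850-118490099, minus strand), and of Aqp1 (chr6:55336049-55336298, plus strand) and Cldn5 (chr16:18776597-18776846, plus strand), the members with the smallest p in iBAT at day 2, in which neither motif was found.
Tie1: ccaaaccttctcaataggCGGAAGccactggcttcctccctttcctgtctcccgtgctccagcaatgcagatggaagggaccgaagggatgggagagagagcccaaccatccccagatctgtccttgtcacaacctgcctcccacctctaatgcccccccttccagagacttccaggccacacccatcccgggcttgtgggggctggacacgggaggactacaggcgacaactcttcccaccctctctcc
Aqp1: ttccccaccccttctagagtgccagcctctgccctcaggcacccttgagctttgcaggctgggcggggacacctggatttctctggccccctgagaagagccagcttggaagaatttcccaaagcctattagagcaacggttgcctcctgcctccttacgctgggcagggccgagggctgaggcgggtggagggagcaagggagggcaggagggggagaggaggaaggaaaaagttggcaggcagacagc
Cldn5: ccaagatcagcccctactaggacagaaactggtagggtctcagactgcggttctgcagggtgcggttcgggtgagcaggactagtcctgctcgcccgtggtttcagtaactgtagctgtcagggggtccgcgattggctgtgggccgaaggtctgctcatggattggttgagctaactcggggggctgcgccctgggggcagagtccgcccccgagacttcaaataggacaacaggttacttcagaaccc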

How the data were processed

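Libraries of mouse iBAT, iWAT and eWAT were made from total RNA (1 µg) and sequenced on an Illumina platform, per the labels' protocols. The authors deposited raw counts per RefSeq transcript accession, 1 table per depot. Per the submitters' processing notes, cutadapt and BWA were used with build mm10; the counting step, annotation and use of strand are not given in the sources used here. No value in the tables is 0, and missing values were taken as 0; iBAT539 and iBAT548 hold few counts of 1, so a missing value there (Flt4, Calcrl, Plvap, Lyve1) is not shown to be 0. Of 17334 accessions, 17030 took a symbol from RefSeq, 105 from GENCODE and 199 had none; of several rows the one with the highest total was used.

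CPM of genes were computed on library totals scaled by TMM factors over all 31 libraries, and summed marker CPM on unscaled totals. From the counts, edgeR 4.0.16 (R 4.3.3) was run with TMM scaling, filterByExpr (minimum count 10, minimum total 15) and the quasi-likelihood test, two-sided, with Benjamini-Hochberg adjustment over all genes and a threshold of 0.05. Standard errors of edgeR differences were derived as the absolute log2 difference divided by the square root of the test's F statistic. Days were compared within a depot (8270 genes in iBAT, 9574 in iWAT, 10043 in eWAT). Depots, and differences between responses, were compared in 1 fit of 31 libraries (11041 genes). Alternatives were RLE scaling, library size alone, no filter, DESeq2 1.42.0, the library score as a covariate, the label number as a block, and each library left out. Low-side or high-side libraries alone were added after seeing the data. Scripts were tested on simulated data. Genes called in any comparison are given with values, and of the other lists up to 3 called genes and 1 that was not. The members, lists and tests were chosen with earlier results of these data known.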

Additional observations from a re-analysis of the deposited data

Results flagged for a closer look

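In groups of 4 or 5 libraries, 1 library passed an outlier cut in 10 of 79 combinations of a member and a group (12.7%). The cut's rate of about 1 in 20 holds for independent, normally distributed values, which these CPM need not be, so no excess is read from it. Of the 10 combinations, 5 were 1 library, iWAT522, the only iWAT library of day 0 on the low side of the library score. It held 10.6 CPM of Flt4 against 1.78 to 1.97 CPM in the other 3 libraries, 148 CPM of Mmrn2 against 15.5 to 32.3 CPM, and 468 CPM of Cdh5 against 45.0 to 87.9 CPM. It also held 374 CPM of Aqp1 against 178 to 192 CPM and 99.6 CPM of Sox17 against 5.93 to 13.5 CPM. In the same group, iWAT516 held 26.1 CPM of Cldn5 against 97.2 to 103 CPM.

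At day 2 in iBAT, iBAT535 held 52.9 CPM of Vwf against 6.89 to 13.6 CPM, and iBAT534 held 17.6 CPM of Calcrl against 13.6 to 13.8 CPM. The Calcrl values rest on 34 reads in iBAT534 against 18, 28 and 20, a small difference. At day 4 in iWAT, iWAT551 held 18.8 CPM of Flt1 against 8.31 to 10.5 CPM, and iWAT548 held 64.2 CPM of Ramp2 against 30.2 to 37.1 CPM.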

How the results depend on the processing

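No difference named for a called gene changed sign under any alternative run. The count of calls moved by over 1.5 times in these cases. DESeq2 called 3 members in iBAT at day 2, 1 for the day 2 response of iBAT versus iWAT, and 5 for iWAT versus eWAT at day 0. With the library score as a covariate, 11 members were called for iBAT versus iWAT and 6 for iWAT versus eWAT at day 0. Over all genes, calls went from 1976 to 2429 and from 863 to 1348 with that covariate. With the label number as a replicate block, 1 was called for iBAT versus eWAT at day 0; the other block counts were within 1.5 times, with 10, 5 and 10 calls over all days for iBAT versus iWAT, iBAT versus eWAT and iWAT versus eWAT. Over all days, calls not made with the block were Aplnr (0.90, adjusted p = 0.0822) and Cdh5 (1.57, adjusted p = 0.0648) for iBAT versus iWAT, Tie1 (0.80, adjusted p = 0.0898) and Aqp1 (-0.57, adjusted p = 0.165) for iBAT versus eWAT, and Vwf (-1.28, adjusted p = 0.057), Esam (-1.06, adjusted p = 0.0686) and Sox18 (-0.98, adjusted p = 0.0643) for iWAT versus eWAT. At day 0 they were Flt1, Tie1, Aplnr and Sox18 for iBAT versus iWAT, Vwf for iBAT versus eWAT and Sox18 for iWAT versus eWAT, at adjusted p from 0.054 to 0.151. Whether equal numbers mark the same mouse is not stated in the labels. Over 23 pairs of libraries with the same number, deviations from group means correlated at -0.439 to 0.364, over 0.1 in 6. These correlations cannot decide it, since depots of the same mouse need not deviate alike.

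Leaving out 1 library at a time gave 0 to 0 calls in the 9 comparisons of days and the 6 of responses. At day 0 it gave 3 to 9 calls for iBAT versus iWAT, 0 to 2 for iBAT versus eWAT and 1 to 6 for iWAT versus eWAT. Calls over all genes ran from 1174 to 2276, 586 to 891 and 390 to 1300 in those day 0 fits. Over all days the omission of 1 library gave 12 to 14, 5 to 8 and 10 to 14 member calls. The causes were not tested. At these depths, and with a common biological coefficient of variation of 0.55 in iBAT, 0.538 in iWAT and 0.583 in eWAT, genes at a few CPM, such as Nos3 and Flt4, are measured with large errors.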
